A study of Rattus norvegicus with 129 samples.

Results

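Livers of 10 male Sprague-Dawley rats were compared 24 h after a single oral dose. Rats 4006 to 4010 received phenobarbital at 100 mg/kg by gavage, and rats 1006 to 1010 received the vehicle alone, 0.5% methylcellulose in water with 1% Tween 80. The rats were selected by the numbers in the sample titles, and they are 10 of the 129 liver samples of the series, which measures rat liver gene expression after phenobarbital, PCN, perfluoroalkyl acids and other compounds. Each array holds the liver of 1 numbered rat, so the 5 arrays of a group stand for 5 animals. Rats lived singly on chow, and livers were flash frozen; age is not given in the sources used here. The same study of 90 arrays holds phenobarbital in males at 6 h and after 5 daily doses, in females at 24 h, and PCN, the steroid pregnenolone carbonitrile, at 100 mg/kg in males at 24 h, which are used below as comparisons. Every group has 5 rats, and each sex and time has its own vehicle group, except that PCN and phenobarbital at 24 h share theirs.

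Phenobarbital is a barbiturate that activates the constitutive androstane receptor (CAR) in hepatocytes without needing to bind it, and in rodents it also acts on the pregnane X receptor (PXR). Both receptors pair with RXR and bind repeats of a short half-site in the regulatory DNA of drug-metabolising genes. The textbook response in rat liver is a rise of Cyp2b and Cyp3a cytochrome P450 enzymes, of their electron donor and haem supply, and of transferases that conjugate the oxidised products. CAR is also known to restrain genes of glucose production and fat synthesis.

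The promoters of 3 responding genes carry letters of a receptor repeat (Cyp3a23-3a1) or of an antioxidant response element (Gsta3 and Ephx1). They are shown because the genes differ in which element is present. Windows of 250 bases before the transcription start were taken from RefSeq on assembly GRCr8 and searched on both strands. The first motif is a direct repeat of the half-site AGNTCA with 3 bases between, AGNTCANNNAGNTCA, which PXR and CAR can bind with RXR. The second is the core of the antioxidant response element, TGACNNNGC, which NRF2 binds. Capitals mark the match, and each window is written 5′ to 3′ on the strand of the gene.
Cyp3a23-3a1, chr12:14398804-14399053, minus strand, direct repeat on the opposite strand at -144 to -130: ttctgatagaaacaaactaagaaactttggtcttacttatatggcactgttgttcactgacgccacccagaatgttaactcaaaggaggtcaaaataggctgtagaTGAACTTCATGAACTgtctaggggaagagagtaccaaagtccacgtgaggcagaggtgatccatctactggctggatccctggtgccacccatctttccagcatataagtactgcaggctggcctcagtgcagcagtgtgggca
Gsta3, chr9:31154739-31154988, plus strand, 1 of 2 windows of the gene, antioxidant core at -17 to -9: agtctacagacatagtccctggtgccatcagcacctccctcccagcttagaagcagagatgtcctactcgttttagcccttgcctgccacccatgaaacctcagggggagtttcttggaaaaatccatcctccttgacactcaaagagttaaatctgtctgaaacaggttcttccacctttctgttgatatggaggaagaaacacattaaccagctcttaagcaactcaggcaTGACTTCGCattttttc
Ephx1, chr13:95263118-95263367, minus strand, 1 of 2 windows of the gene, antioxidant core on the opposite strand at -57 to -49: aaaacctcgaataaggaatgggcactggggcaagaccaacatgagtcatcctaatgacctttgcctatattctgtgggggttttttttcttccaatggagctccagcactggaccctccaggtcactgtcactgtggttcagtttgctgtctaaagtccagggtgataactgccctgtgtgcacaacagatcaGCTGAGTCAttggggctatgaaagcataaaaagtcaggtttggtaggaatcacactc

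The direct repeat was rare in these windows. It was found in 3 of the 3879 measured genes that have a window (0.0773%) and in 20 of all 33469 windows of the table (0.0598%). Among the 50 genes with a window that rose with phenobarbital, only Cyp3a23-3a1 held it. Direct repeats with 4 bases between (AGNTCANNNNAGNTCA, in 2 measured genes) and everted repeats with 6 (TGANCTNNNNNNAGNTCA, in 1) were in none of those 50. Repeats this rare would be missing from most sets of 50 genes, and sites beyond the 250 bases were not searched. Their absence therefore says little about these genes. The antioxidant core was common: 509 of the 3879 genes (13.1%), 10.1% of all windows, 8 of the 50 genes that rose (16.0%) and 4 of the 37 that fell (10.8%). Matches of letters in a short window carry no measurement of binding.

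Values are intensities of probe sets on a one-colour oligonucleotide array, set to one distribution across arrays (quantile normalisation) and given as log2(value + 16), so that 4.00 is the lowest possible level and stands for a deposited value at or below 0. Differences are phenobarbital minus vehicle on that scale with their standard error (SE), and they understate the change of dim genes. The mean deposited intensity of the 10 arrays ran from 164 to 338, with phenobarbital rat 4008 the dimmest, and 22.5% to 25.4% of probe sets were at or below 0 on each. Each array correlated with the mean of its own group at 0.960 to 0.981. Of 12 hepatocyte markers written down, 10 were measured. Their mean level was 12.02 to 12.19 over the vehicle rats and 11.88 to 12.01 over the phenobarbital rats, so the groups did not overlap, by a narrow margin. Of the 10, Tat and Cps1 fell by the test (20.0%, beside 0.992% of all genes) and none rose. Tat was the lowest at -0.98, 5 of the 10 had a difference above 0, and the median was -0.09. Albumin had a difference of 0.00. In whole liver, fewer cells of a type and less RNA per cell cannot be told apart.

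In all, 202 of 8740 probe sets passed an adjusted p of 0.05 (2.31%), 120 higher and 82 lower with phenobarbital. Read as genes, each by its brightest probe set of 1 gene symbol, 60 of 4736 rose (1.27%) and 47 fell (0.992%). The groups did not overlap in 43 of the 60 that rose and in 27 of the 47 that fell, and over all 4736 genes treated rats lay wholly above vehicle rats in 90 (1.90%) and wholly below in 77 (1.63%). Of the genes that rose, 8 rose by at least 2 on the log2 scale, 13 by 1 to 2 and 39 by less. Of those that fell, 4 fell by at least 2, 11 by 1 to 2 and 32 by less. The median difference of all genes was 0.00. The spread between rats was estimated over all 89 arrays used. With the spread taken from these 10 arrays alone, which were then also normalised anew, 114 probe sets passed. Wherever the spread of only these arrays or of only the groups compared is used below, both steps were changed. Without vehicle rat 1006 the count was 126.

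The Cyp2b genes gave the widest separation. Cyp2b2, the enzyme by which CAR activation is usually read in the rat, stood at 8.81, 8.88, 8.55, 8.96 and 9.50 in vehicle rats 1006 to 1010. In phenobarbital rats 4006 to 4010 it stood at 12.68, 12.49, 12.76, 12.71 and 12.86. Every treated rat lay above every vehicle rat, and the spread among treated rats (SD 0.14) was under that among vehicle rats (SD 0.35). The difference of 3.76 ± 0.29 (SE, 13.6-fold, limma adjusted p = 4e-17) was 3.12 on the gene's second probe set.

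Cyp2b15, a close relative, read 7.90, 7.88, 7.69, 7.84 and 8.01 with vehicle and 11.13, 11.06, 11.63, 11.39 and 11.43 with phenobarbital. Its difference was 3.47 ± 0.19 (SE, 11.1-fold, adjusted p = 1.7e-24), with no overlap. Cyp2b12 was at the lowest level in all 5 vehicle rats and in rat 4006, and at 4.30 to 4.91 in the other treated rats. That shift passed the test (adjusted p = 0.0019, but 0.31 with the spread of these 10 arrays alone), and no fold is given against a group at the lowest level. Cyp2b3, also of this family, differed by -0.30 (adjusted p = 0.099). So 3 of the 4 measured Cyp2b genes rose (75.0%, beside 1.27% of all genes). Cyp2b1 lies on probe sets that name several genes and is not analysed here, and probe sets of the near-identical Cyp2b sequences may share signal between members.

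Of 4 measured Cyp3a genes, which oxidise many drugs and steroids and respond to PXR, 2 rose and the other two stayed at a difference near 0. Cyp3a23-3a1, whose promoter window holds the direct repeat, read 10.79, 11.33, 11.14, 11.20 and 11.18 with vehicle. With phenobarbital it read 12.32, 12.21, 12.39, 12.55 and 12.49, above every vehicle rat. The difference was 1.26 ± 0.17 (SE, 2.40-fold, adjusted p = 9.6e-08), and all 4 of its probe sets passed, at 1.01 to 1.51.

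Cyp3a9 started dim, at 7.71, 6.18, 6.46, 6.26 and 6.83, and reached 8.97, 8.92, 9.64, 8.96 and 8.80. Its difference of 2.37 ± 0.48 (SE, adjusted p = 0.00074) exceeded the wide spread among its vehicle rats (SD 0.62). Cyp3a2 and Cyp3a18 each differed by 0.01, with 95% intervals of -0.67 to 0.68 and -0.56 to 0.57. The probe sets of the Cyp3a family may share signal between members.

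In the Cyp2a and Cyp2c list, 1 of 10 measured genes rose (10.0%, beside 1.27% of all genes) and 1 fell (10.0%, beside 0.992%). Cyp2c6v1 read 11.08, 11.62, 11.09, 11.47 and 11.60 with vehicle and 11.76, 12.10, 12.15, 12.13 and 12.03 with phenobarbital. It rose by 0.66 ± 0.09 (SE, 1.58-fold, adjusted p = 1.6e-07, but 0.062 with the spread of these 10 arrays alone), and all treated rats lay above the vehicle rats. Cyp2c23, an arachidonic acid epoxygenase, fell by 0.37 ± 0.10 (SE, adjusted p = 0.031), a call that held only without rat 4006, 4007 or 1008 and was lost without any of the other 7 rats. Male-biased Cyp2c11 differed by 0.41 (adjusted p = 0.55). None of the 14 other P450s of xenobiotic metabolism passed, Cyp1a2, the target of the aryl hydrocarbon receptor, at -0.37 (adjusted p = 0.56) among them.

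**Figure D1:**
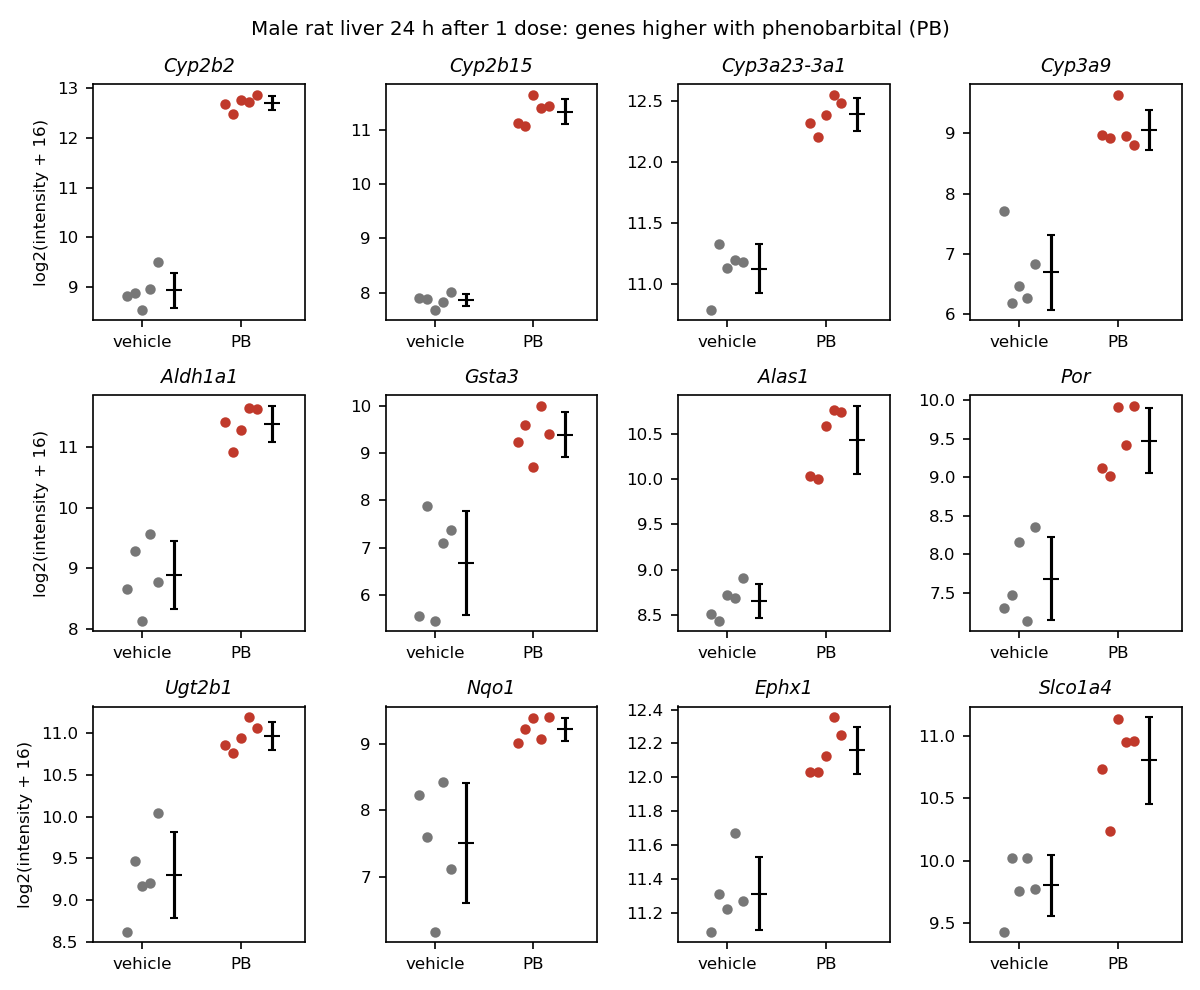
Level of 12 genes in each rat, log2(intensity + 16), in 5 vehicle rats (grey) and 5 phenobarbital rats (red) of the male 24 h groups; the bar beside each group is its mean and SD, and the vertical axes start at different levels. In all 12 genes every treated rat lies above every vehicle rat, most widely for Cyp2b2 and Cyp2b15.

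Of 11 measured genes of electron supply to the P450s and of haem metabolism, 3 rose and none fell (27.3%, beside 1.27% of all genes), and the median of the 11 was 0.11. Por, the reductase that feeds electrons to microsomal P450s, read 7.31, 7.47, 8.16, 7.14 and 8.36 with vehicle and 9.13, 9.01, 9.91, 9.42 and 9.93 with phenobarbital. It rose by 1.79 ± 0.26 (SE, 3.46-fold, adjusted p = 3.8e-07), and all 3 of its probe sets passed. The vehicle rats spread over more than 1 log2 unit, yet none reached a treated rat.

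Alas1, the first and controlling enzyme of haem synthesis, read 8.51, 8.43, 8.72, 8.69 and 8.90 with vehicle and 10.04, 10.01, 10.59, 10.77 and 10.75 with phenobarbital. It rose by 1.78 ± 0.25 (SE, 3.43-fold, adjusted p = 3.9e-07), and rats 4006 and 4007 rose least. Cyb5a, cytochrome b5, rose by 0.52 ± 0.10 (SE, adjusted p = 0.00011) on its brightest probe set. Only that 1 of its 3 probe sets passed (they ran from -0.24 to 0.52), and over their mean the adjusted p was 0.53. With the displaced array of vehicle rat 1003 at 6 h kept in the fit the adjusted p was 0.84.

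Of 23 measured oxidoreductases and hydrolases 5 rose and none fell (21.7%, beside 1.27% of all genes). Aldh1a1, which oxidises retinal and other aldehydes, read 8.66, 9.29, 8.14, 9.57 and 8.78 with vehicle and 11.41, 10.91, 11.28, 11.63 and 11.62 with phenobarbital. The rise of 2.48 ± 0.25 (SE, 5.59-fold, adjusted p = 2.4e-12) left no overlap between groups. Ephx1, microsomal epoxide hydrolase, was abundant at 11.09, 11.31, 11.22, 11.67 and 11.27 and reached 12.03, 12.03, 12.12, 12.36 and 12.25. It rose by 0.85 ± 0.15 (SE, 1.80-fold, adjusted p = 5.5e-05, but 0.67 when the displaced array of vehicle rat 1003 at 6 h was kept in the fit).

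Nqo1, a quinone reductase under NRF2 control, varied widely with vehicle at 8.23, 7.61, 6.19, 8.43 and 7.12, and was tight with phenobarbital at 9.01, 9.22, 9.38, 9.07 and 9.39. Its rise of 1.70 ± 0.40 (SE, adjusted p = 0.0069) rested in part on vehicle rat 1008, without which the difference was 1.37 (adjusted p = 0.068); with the spread of these 10 arrays alone the adjusted p was 0.10. Only 1 of its 2 probe sets passed. Akr7a3, an aflatoxin aldehyde reductase, rose by 0.99 ± 0.29 (SE, adjusted p = 0.047), a call kept without rat 4007 or 1009 and lost without any other rat. The carboxylesterase Ces1c rose by 0.46 (adjusted p = 0.043), kept only without rat 4010 or 1007. Its adjusted p was 0.84 with rat 1003 in the fit. The count of 5 was 2 without vehicle rat 1008, 2 with rat 1003 in the fit, 2 with the spread of these 10 arrays alone, and 3 without 4006, 4008, 4009, 1006 or 1010.

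Among 12 measured NRF2 targets 4 rose (33.3%, beside 1.27% of all genes), which are Nqo1, Akr7a3, the glutathione reductase Gsr and the pentose phosphate enzyme Tkt. Gsr read 7.15, 7.47, 7.97, 7.02 and 7.49 with vehicle and 8.69, 8.69, 8.45, 8.63 and 8.96 with phenobarbital. It rose by 1.26 ± 0.34 (SE, adjusted p = 0.023) with all 3 probe sets past the threshold, and its adjusted p was 0.066 without rat 4010, 0.071 without 1006 and 0.068 without 1009. Tkt rose by 0.58 ± 0.17 (SE, adjusted p = 0.049), a call kept only without rat 4007 or 1008. Other NRF2 targets did not pass: the glutathione synthesis genes Gclc at 0.59 (adjusted p = 0.30) and Gclm at 0.34, thioredoxin reductase Txnrd1 at 0.21, and haem oxygenase Hmox1 at -0.97 (adjusted p = 0.075, and 0.022 without rat 4006). The count of 4 fell to 1 without rat 4010 or 1006, to 2 without 4006, 4008, 4009, 1007, 1008, 1009 or 1010, and stayed at 4 without 4007.

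Of 15 measured glutathione transferases, which couple electrophiles to glutathione, 3 rose (20.0%, beside 1.27% of all genes) and none fell. Gsta3 was low and uneven with vehicle, at 5.56, 7.88, 5.46, 7.11 and 7.38, and rose to 9.23, 9.60, 8.70, 9.99 and 9.41. Its difference of 2.71 ± 0.35 (SE, 6.52-fold, adjusted p = 1.6e-08) passed on all 3 of its probe sets, at 2.03 to 2.71. Gsta4, which handles lipid peroxidation products, rose from 9.37, 9.52, 9.16, 9.28 and 9.39 to 10.14, 9.92, 10.02, 10.02 and 10.05, by 0.69 ± 0.14 (SE, adjusted p = 0.00074).

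Gsta1 rose by 0.48 ± 0.09 (SE, adjusted p = 0.00016), and with arrays scaled to one median instead its adjusted p was 0.062. Gstm1 differed by 0.42 without passing (adjusted p = 0.11), though all 5 treated rats lay above all vehicle rats. The alpha-class transferases are near copies of each other, so their probe sets may share signal.

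Among 10 measured glucuronosyltransferases, which attach glucuronic acid to drugs and bilirubin, 1 rose (10.0%, beside 1.27% of all genes). Ugt2b1 read 8.62, 9.46, 9.18, 9.21 and 10.04 with vehicle and 10.86, 10.76, 10.94, 11.19 and 11.07 with phenobarbital. The rise of 1.66 ± 0.20 (SE, 3.16-fold, adjusted p = 5.7e-09) left no overlap. Ugdh, which makes the glucuronic acid donor, differed by 0.35 (adjusted p = 0.29). None of 12 measured sulfotransferases and other transferases passed, and Sult1a1 was the farthest from 0 at -0.48 (adjusted p = 0.37).

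In the list of 17 measured transporters 1 rose (5.88%, beside 1.27% of all genes). Slco1a4, which carries bile acids and drugs into hepatocytes, read 9.43, 10.02, 9.76, 10.02 and 9.77 with vehicle and 10.73, 10.24, 11.13, 10.95 and 10.96 with phenobarbital. It rose by 1.00 ± 0.21 (SE, 2.00-fold, adjusted p = 0.0017), with rat 4007 closest to the vehicle range. Abcc3, which exports conjugates to blood, read 5.25, 4.85, 5.12, 5.54 and 4.99 against 5.70, 5.87, 5.97, 6.42 and 6.20. Its difference of 0.88 ± 0.26 (SE) missed the threshold at an adjusted p of 0.056, and it passed without rat 4006 (0.049) or 1009 (0.045). Abcc2, the exporter to bile, differed by 0.19 (adjusted p = 0.86).

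Of 32 measured genes of nuclear receptors and related factors 1 fell (3.12%, beside 0.992% of all genes) and none rose. It was Vdr, the vitamin D receptor, which fell by 1.21 ± 0.35 (SE, adjusted p = 0.048). The call was kept only without rat 4006 or 4007. The lowest difference in the list was that of Cebpa, a hepatocyte transcription factor, at -2.04 (adjusted p = 0.11). It lay at 5.79 to 8.00 with vehicle and at the lowest level in 4 treated rats, with rat 4007 at 6.43, and it passed without that rat (0.036). Rxra was at the lowest level in all 10 rats. CAR (Nr1i3) and PXR (Nr1i2) are not analysed here, as are Gadd45b, Aldh1a7, Gsta2 and Ugt1a6.

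Of 26 measured genes of the proteasome, the protease that degrades ubiquitin-tagged proteins, 7 rose by the test, none fell and 19 did not pass. The difference was above 0 in 24 of the 26, with a median of 0.38 against 0.00 over all genes. The share that rose was 26.9%, beside 1.27% of all genes. The mean level of the 26 was 8.86 to 9.04 over the vehicle rats and 9.16 to 9.33 over the phenobarbital rats. The groups did not overlap, which was not particular to the proteasome. Mean levels also separated for NRF2 targets (7.35 to 7.78 with vehicle, 7.98 to 8.13 with phenobarbital). They did so downward for fat synthesis genes (7.73 to 8.38 and 7.29 to 7.61), while other lists, such as cholesterol synthesis, overlapped.

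The 7 span the catalytic core, its base and its lid. In the core, Psma7 read 9.26, 9.49, 9.48, 9.62 and 9.51 with vehicle and 10.14, 9.78, 10.38, 10.27 and 9.90 with phenobarbital, a rise of 0.62 ± 0.13 (SE, 1.54-fold, adjusted p = 0.0023, but 0.059 with the spread of these 10 arrays alone). Psmb3 rose by 0.57 (adjusted p = 0.015) and lost its call without vehicle rat 1010 (0.057). Psmb1 rose by 0.41 (adjusted p = 0.016), lost without rat 4008 (0.067) or 1010 (0.075). Its call was also lost with rat 1003 in the fit, median scaling, or the spread of these 10 arrays alone. Over all alternatives its highest adjusted p was 0.93.

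Among the ATPases of the base, Psmc3 read 7.83, 7.99, 8.10, 7.94 and 8.07 against 8.45, 8.32, 9.01, 8.69 and 8.61, a rise of 0.63 ± 0.16 (SE, adjusted p = 0.015). Its adjusted p was 0.081 without rat 4008 and 0.057 without 1006. Psmc1 rose by 0.33 (adjusted p = 0.031), kept only without rat 4006, 4008, 1006 or 1007. In the lid, Psmd13 rose by 0.57 (adjusted p = 0.023) and Psmd11 by 0.45 (adjusted p = 0.022). Psmd11 lost its call without rat 4006 (0.065), 4008 (0.059), 1006 (0.054) or 1007 (0.068). Psmd13 lost its call without rat 4008 or 4009 (0.053 each), 1008 (0.091) or 1009 (0.061).

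The inducible immune subunits Psmb8 and Psmb9 stood at -0.23 and 0.05, and the activator subunits Psme1 and Psme2 at 0.15 and 0.09, none of them past the threshold. The number that passed depended on the setting. It was 3 without rat 4008, the dimmest array, 4 without vehicle rat 1010 and 8 without 1008. With arrays scaled to one median it was 1 (Psma7), though 25 of 26 lay above 0 with a median of 0.42, and over the mean of each gene's probe sets it was 11. The antioxidant core was in the promoter windows of 3 of 25 proteasome genes (12.0%), beside 13.1% of all measured genes and 4 of 10 in the NRF2 list (40.0%). Those 3 proteasome genes, Psmb2, Psmd1 and Psmb5, did not pass. No match within 250 bases before the start was found for Nqo1, Akr7a3, Gsr or Tkt, the NRF2 targets that rose. Sites farther away were not searched, and only 10 of the 12 measured NRF2 targets have a window. The search therefore cannot say whether these genes have the element. Ubiquitin and autophagy genes (0 of 11), cytosolic and mitochondrial heat shock genes (0 of 20) and chaperones of the endoplasmic reticulum (0 of 21) had no member past the threshold.

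**Figure D2:**
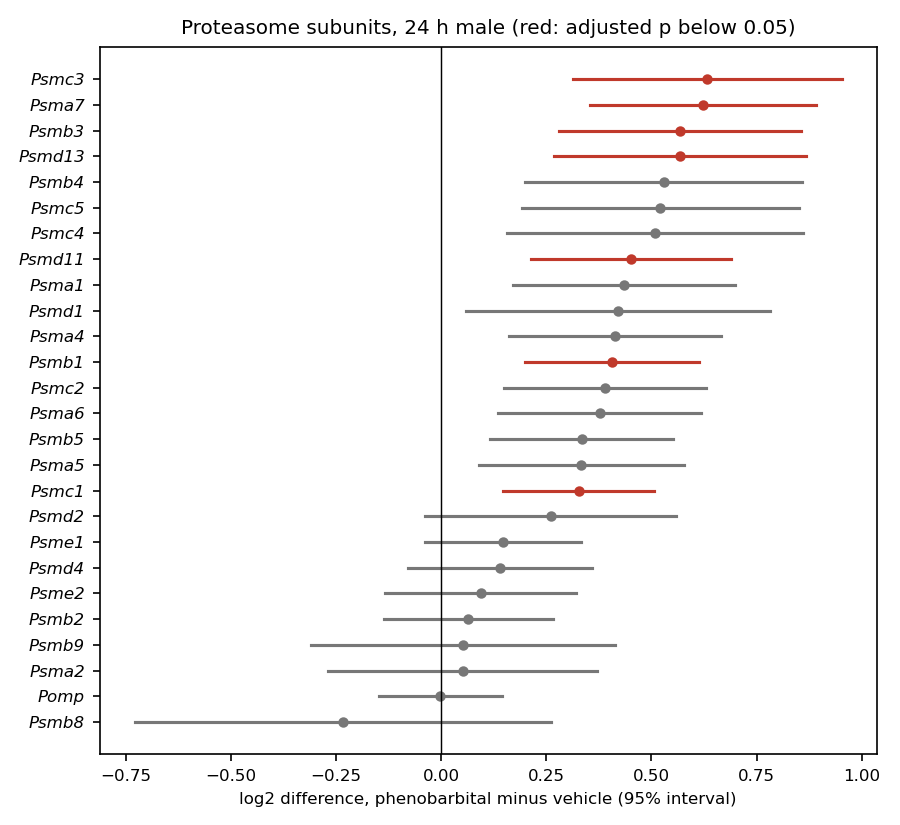
Difference in log2 level, phenobarbital minus vehicle with its 95% interval, for the 26 measured proteasome genes in male liver at 24 h, ordered by size. The 7 genes with an adjusted p below 0.05 are red, and 24 of the 26 points lie to the right of 0.

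Of 24 measured genes of mitochondrial fat oxidation 2 rose (8.33%, beside 1.27% of all genes), and in the peroxisomal and PPARalpha list 1 of 23 (4.35%). Eci1, an isomerase of unsaturated fatty acid oxidation, read 8.14, 8.93, 8.21, 9.49 and 8.95 against 10.24, 9.40, 10.82, 10.12 and 9.50. These groups overlapped at rats 1009 and 4007, and the rise of 1.27 ± 0.35 (SE, adjusted p = 0.031) was seen on 2 of 4 probe sets. It was lost without rat 4006, 4008, 4009, 1006 or 1008.

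Cpt2, which reforms acyl-CoA inside mitochondria, rose by 0.61 (adjusted p = 0.035), lost without rat 4008, 4009, 4010, 1006 or 1008. Decr2, a peroxisomal reductase, rose by 0.50 (adjusted p = 0.033), kept only without rat 4007, 4010 or 1007. Cyp4a1, the usual marker of PPARalpha, differed by 0.49 (adjusted p = 0.59). With arrays scaled to one median the mitochondrial count was 0, as it also was without rat 4008, 4009, 1006 or 1008.

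Genes of cholesterol synthesis leaned up without any of 15 measured passing. Their median difference was 0.63, and 13 lay above 0. Squalene epoxidase Sqle had the largest difference at 1.36 ± 0.54 (SE, adjusted p = 0.22), its vehicle rats at 6.14, 6.81, 7.71, 6.87 and 8.58 and its treated rats at 8.51, 9.05, 8.18, 8.62 and 8.56. Idi1 differed by 1.13 (adjusted p = 0.14) and Msmo1 by 1.00 (adjusted p = 0.20). The list's mean level overlapped between groups, at 8.10 to 8.95 with vehicle and 8.64 to 9.34 with phenobarbital.

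Among genes that fell, those of glucose production and amino acid breakdown stood out by count. In the list of gluconeogenesis and fasting 5 of 20 measured genes fell and none rose, 25.0% beside 0.992% of all genes, with a median of -0.26. In the list of nitrogen disposal, which holds urea cycle enzymes and enzymes that break down amino acids, 5 of 33 fell (15.2%) and none rose, again with a median of -0.26. Sds and Tat are in both lists. With the spread of only the groups compared, 3 of 20 fell in the list of gluconeogenesis and fasting. In that setting 2 of 33 fell in the list of nitrogen disposal. Both lists were chosen with earlier results of these data known.

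Sds, serine dehydratase, which turns serine into pyruvate, had the largest fall of all genes and was uneven. Vehicle rats read 10.90, 10.66, 11.83, 9.03 and 11.38. Treated rats 4006, 4007 and 4009 were at the lowest level, while 4008 and 4010 stood at 9.11 and 9.14, just above vehicle rat 1009. The difference was -4.71 ± 0.97 (SE, adjusted p = 0.0010) and all 3 probe sets passed. With the spread taken from only the groups compared its adjusted p was 0.17.

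Tat, tyrosine aminotransferase, a classic target of glucocorticoids and fasting, read 10.85, 10.01, 10.60, 10.45 and 10.88 with vehicle and 8.98, 9.54, 9.91, 9.40 and 10.07 with phenobarbital. It fell by 0.98 ± 0.19 (SE, adjusted p = 0.00041, but 0.12 with the spread of these 10 arrays alone), with an overlap of vehicle rat 1007 and treated rat 4010. Got1, the cytosolic aspartate aminotransferase, read 9.15, 9.66, 9.25, 8.67 and 9.55 against 8.16, 8.05, 8.46, 7.92 and 8.29. It fell by 1.08 ± 0.28 (SE, adjusted p = 0.019), and its adjusted p was 0.062 without rat 4009, 0.065 without 1007 and 0.061 without 1010.

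Slc37a4, the carrier that brings glucose 6-phosphate to its phosphatase, was tight with vehicle at 10.35, 10.28, 10.36, 10.37 and 10.47 and lower in every treated rat at 9.37, 9.58, 9.66, 9.47 and 9.86. It fell by 0.78 ± 0.15 (SE, 1.71-fold, adjusted p = 0.00041) on both probe sets. Pc, pyruvate carboxylase, the entry enzyme of gluconeogenesis, fell by 0.56 (adjusted p = 0.0025). Pck1, the gene most often used as its marker, read 11.00, 11.44, 10.82, 11.49 and 11.66 against 10.14, 10.12, 11.16, 10.12 and 10.56. The difference of -0.86 ± 0.34 (SE) did not pass (adjusted p = 0.23), with rat 4008 inside the vehicle range. G6pc1 is not analysed here. Igfbp1, which insulin represses, differed by -2.75 without passing (adjusted p = 0.089, and 0.011 without rat 4008).

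Glul, glutamine synthetase, which marks the hepatocytes around the central vein, read 11.14, 10.63, 10.14, 10.63 and 10.75 with vehicle and 10.02, 9.57, 9.39, 9.44 and 9.63 with phenobarbital. It fell by 1.04 ± 0.16 (SE, 2.06-fold, adjusted p = 1.4e-06), without overlap and on all 4 probe sets. Cdo1, which oxidises cysteine, read 11.43, 10.97, 11.28, 11.25 and 11.25 against 10.70, 10.52, 10.55, 10.54 and 10.74, a fall of 0.63 ± 0.10 (SE, adjusted p = 1.2e-05) on both probe sets. Cps1, the first enzyme of the urea cycle, fell by 0.26 ± 0.06 (SE, adjusted p = 0.0044) on 2 of 3 probe sets. Its adjusted p was 0.62 with arrays scaled to one median and 0.059 with the spread of these 10 arrays alone. The call was also lost with rat 1003 in the fit. Other enzymes of the cycle did not pass, Otc at -0.19, Ass1 at -0.34, Asl at -0.58 and Arg1 at -0.07.

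Fewer genes of sugar handling and fat synthesis fell. Pklr, liver pyruvate kinase, read 8.14, 8.01, 9.21, 8.57 and 8.13 with vehicle and 6.86, 6.88, 6.62, 7.09 and 6.75 with phenobarbital, with a gap of almost 1 log2 unit between the groups (SE of the difference 0.27, adjusted p = 2.9e-05). Slc2a2, the glucose transporter of hepatocytes, read 9.55, 9.86, 9.90, 10.08 and 9.82 against 8.67, 8.81, 9.11, 9.11 and 9.37, a fall of 0.83 ± 0.19 (SE, adjusted p = 0.0050, but 0.60 with rat 1003 in the fit). They were the 2 of 22 measured genes of glycolysis and glycogen that passed (9.09%, beside 0.992% of all genes). Tkfc, which phosphorylates products of fructose, fell by 1.02 (adjusted p = 0.017), and its adjusted p was 0.054 without rat 4006 and 0.073 without 1008.

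Scd, the desaturase that makes oleate, was the only 1 of 18 measured genes of fat synthesis to pass (5.56%, beside 0.992% of all genes). It read 11.17, 11.37, 11.81, 11.44 and 11.07 with vehicle and 8.20, 8.07, 10.02, 6.76 and 7.68 with phenobarbital. All treated rats were lower, but they spread widely (SD 1.19), with rat 4008 the least changed. The difference was -3.22 ± 0.68 (SE, 9.35-fold, adjusted p = 0.0016), and both probe sets passed. Cyp7a1, the rate-limiting enzyme of bile acid synthesis, read 7.45, 4.84, 7.25, 7.13 and 7.58 against 4.00, 5.94, 4.90, 4.95 and 4.00. Its difference of -2.09 ± 0.68 (SE) missed the threshold (adjusted p = 0.089) and passed without the low vehicle rat 1007 (-2.60, adjusted p = 0.028).

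**Figure D3:**
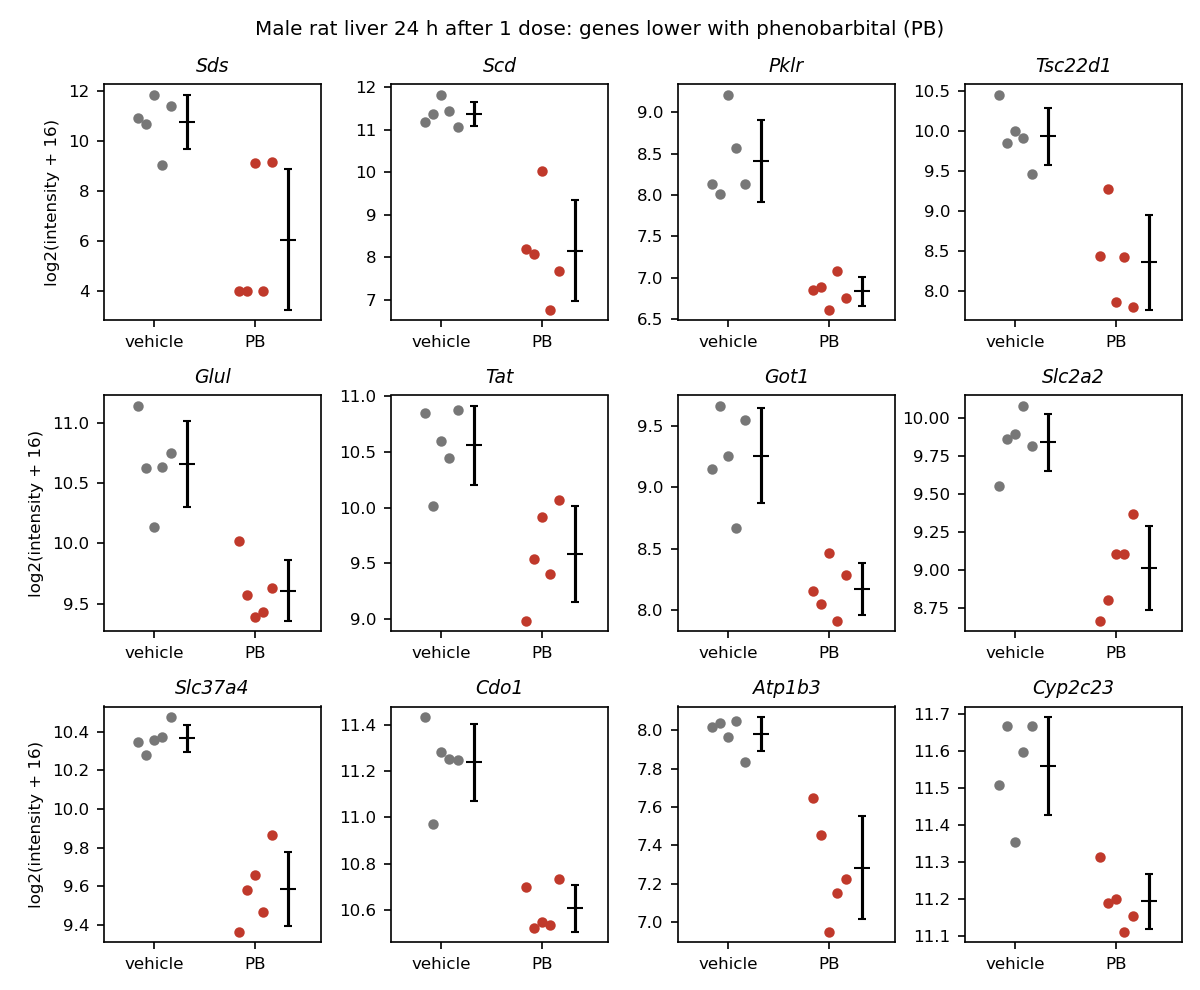
Level of 12 genes in each rat, log2(intensity + 16), in 5 vehicle rats (grey) and 5 phenobarbital rats (red) of the male 24 h groups; the bar beside each group is its mean and SD, and the vertical axes start at different levels. The groups separate for 10 of the genes; in Sds 3 treated rats sit at the lowest level of 4.00 and 2 near 9, and in Tat 2 rats overlap.

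Outside the lists, Tsc22d1, a leucine zipper protein, read 10.45, 9.85, 10.00, 9.91 and 9.47 with vehicle and 8.44, 9.28, 7.87, 8.42 and 7.80 with phenobarbital. It fell by 1.57 ± 0.25 (SE, 2.97-fold, adjusted p = 5.2e-06) without overlap. Atp1b3, a subunit of the sodium pump, read 8.02, 8.04, 7.97, 8.05 and 7.83 against 7.65, 7.45, 6.95, 7.15 and 7.22, a fall of 0.70 ± 0.11 (SE, adjusted p = 5.2e-06, but 0.077 with rat 1003 in the fit). The growth factor receptor Egfr fell by 0.69 (adjusted p = 0.0055, but 0.29 with rat 1003 in the fit). Mpc1, which brings pyruvate into mitochondria, fell by 0.45 (adjusted p = 2.8e-05). Fdx1, an electron carrier to mitochondrial P450s, rose by 0.61 (adjusted p = 0.0026). Its adjusted p was 0.28 over the mean of its probe sets and 0.53 with rat 1003 in the fit. Egfr, Mpc1 and Fdx1 were picked after their values were seen.

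Several other large falls rested on part of the rats. Onecut1, a hepatocyte transcription factor, read 7.22, 6.34, 6.06, 4.35 and 6.90 with phenobarbital against 7.60 to 8.72 with vehicle, a fall of 2.11 (adjusted p = 0.028) that was lost without rat 4008, 4009, 1006, 1008 or 1010. Mapkapk2, a stress kinase, was at the lowest level in rats 4007, 4009 and 4010 and at 6.68 and 7.05 in the other two, beside 6.98 to 7.20 with vehicle; its call (-1.92, adjusted p = 0.016) was lost without any 1 of those 3 rats. Cdc34, a ubiquitin-conjugating enzyme, was at the lowest level in rats 4009 and 4010 but at 8.28 in rat 4008. Its fall of 1.82 (adjusted p = 0.013) was on 1 of 3 probe sets and was lost without rat 4009 or 4010.

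Bok, a relative of BCL2, fell by 1.31 (adjusted p = 0.015), lost without rat 4008 (0.055) or 1006 (0.057). Sgk1, a kinase induced by glucocorticoids, fell by 0.87 (adjusted p = 0.036), kept only without rat 4007, 4008, 1007 or 1010. Ghr, the growth hormone receptor, fell by 0.72 (adjusted p = 0.046), kept only without rat 4008. Kctd15 fell by 1.16 (adjusted p = 0.046), kept only without rat 4007, 4010 or 1008. Wdpcp was at the lowest level in all treated rats and at 5.00 to 6.05 with vehicle (adjusted p = 0.047); its call was lost without any 1 of the 10 rats. Gip, a gut hormone gene, read 6.31 to 7.28 with vehicle and was at the lowest level in rats 4007, 4009 and 4010 (adjusted p = 7e-05); only 1 of its 3 probe sets passed.

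Several of the largest rises were of probe sets near the lowest level in vehicle liver. Slc6a9, a glycine transporter, was at 4.00 in 4 vehicle rats and 4.07 in rat 1010, and at 8.96, 5.92, 8.55, 8.19 and 8.91 with phenobarbital (adjusted p = 1.4e-10). Rat 4007 was well below the other treated rats. Grm5, a glutamate receptor of neurons, was at 4.00 in 4 vehicle rats and 4.29 in rat 1007, and at 6.15, 7.65, 6.36, 6.87 and 6.84 with phenobarbital (adjusted p = 1.4e-10).

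Uncx, a developmental transcription factor, was at the lowest level in all vehicle rats and at 5.45 to 6.26 in all treated rats (adjusted p = 0.0026). Cblif, gastric intrinsic factor, was at 4.00 to 4.90 against 6.01 to 6.53 (adjusted p = 0.0013) on 1 of 2 probe sets. Ptger4, a prostaglandin receptor, rose from at most 5.24 to at least 5.38 (adjusted p = 0.036), kept only without rat 4006, 4007, 1007 or 1010. Vom2r21 rose by 1.27 (adjusted p = 0.031), kept only without rat 4007 or 1007. Each of Slc6a9, Grm5 and Uncx rests on 1 probe set, and whether it measures the named gene was not tested.

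Of 24 measured genes of growth arrest and apoptosis 2 rose (8.33%, beside 1.27% of all genes) and 1 fell, Sgk1 (4.17%, beside 0.992%). Mdm2, which degrades p53, read 6.40, 6.50, 6.65, 5.81 and 6.63 against 6.93, 7.21, 7.46, 7.24 and 7.87, a rise of 0.94 ± 0.21 (SE, adjusted p = 0.0025) on 1 of 4 probe sets, with an adjusted p of 0.73 over their mean. Of 28 measured cell cycle genes 1 rose (3.57%, beside 1.27% of all genes), Stmn1, a microtubule regulator, by 0.88 (adjusted p = 0.028). Rat 4008 was highest for it at 8.18, and the call was lost without rat 4008, 4009, 1006, 1008 or 1010. Ctsl, a lysosomal protease and the other gene of growth arrest and apoptosis that rose, did so by 0.37 (adjusted p = 0.0096) and was lost without rat 1008 (0.079).

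No member passed among 39 acute phase genes (median -0.10), 10 clock genes, 16 sex-biased liver genes or 11 genes of the amino acid response. Only 9 of the 39 acute phase genes lay above 0. Their mean level was 10.67 to 10.75 with vehicle and 10.57 to 10.61 with phenobarbital, a small shift without overlap. The clock output gene Dbp stood at -1.69 (adjusted p = 0.48), with rat 4010 at 5.46 and the other treated rats at the lowest level. Of 37 cytosolic ribosomal proteins 33 lay above 0 (median 0.09) with none past the threshold. Of 39 respiratory chain subunits 1 fell (2.56%, beside 0.992% of all genes). It was Ndufa6, by 0.34 (adjusted p = 0.027), kept only without rat 4007, 4009, 4010 or 1008. Cdh2, N-cadherin, fell by 0.69 (adjusted p = 0.011) as the 1 of 30 cytoskeleton and adhesion genes to pass (3.33%, beside 0.992%). Its call was lost without rat 4010 (0.079).

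No marker of the other liver cells passed, and the groups overlapped in the mean level of each set except that of the bile duct. The mean level of 9 macrophage markers was 7.19 to 7.89 with vehicle and 7.29 to 7.89 with phenobarbital, with Csf1r at the lowest level in all rats. Over 8 endothelial markers it was 5.53 to 6.13 and 5.74 to 5.96, and over 12 stellate cell markers 6.57 to 7.07 and 6.53 to 7.07 with Des at the lowest level. Over 9 bile duct markers it was 5.96 to 6.08 with vehicle and 6.08 to 6.10 with phenobarbital, all treated rats being slightly higher, with Ggt1 at the lowest level. Over 13 lymphocyte markers it was 5.36 to 5.67 and 5.30 to 5.60, with Cd3d, Cd2 and Prf1 at the lowest level, and over 5 neutrophil markers 4.39 to 4.75 and 4.46 to 4.66. The 6 blood markers lay at 8.01 to 8.68 and 8.20 to 8.59.

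The response was set beside phenobarbital given for other times, each against its own vehicle rats. At 6 h, with 4 vehicle rats, 34 genes were higher (0.718%) and 5 lower (0.106%). Of the 60 genes that rose at 24 h, 11 had risen at 6 h, which is 18.3% of the 24 h genes and 32.4% of the 6 h genes. Of the 47 that fell, 3 had fallen at 6 h (6.38% and 60.0%). Cyp2b2 was 3.84 above vehicle at 6 h and Alas1 1.60, beside 3.76 and 1.78 at 24 h.

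The effects at 6 h and 24 h, each against its own vehicle rats, were then tested against each other. That test called 1 gene with a higher effect at 24 h (0.0211%) and 6 with a lower one (0.127%). Aldh1a1 was 0.74 ± 0.26 (SE) above vehicle at 6 h, and its effect at 24 h was larger by 1.74 ± 0.36 (SE, adjusted p = 0.020). Got1, Tat, Glul and Atp1b3 were at 0.77, 0.22, 0.02 and 0.02 against vehicle at 6 h. Their effects at 24 h were lower by 1.85, 1.19, 1.07 and 0.71 (adjusted p = 0.040, 0.044, 0.027 and 0.043). The effect was also lower for the ribosome-binding protein Lrrc59 by 0.85 (adjusted p = 0.044) and for Hnrnpd by 0.71 (adjusted p = 0.046). Scd and Sds were at 0.03 and 0.21 against vehicle at 6 h. Their effects at 24 h differed by -3.25 and -4.92 without passing (adjusted p = 0.25 and 0.18). Over all probe sets 14 passed this test, 28.6% of them higher at 24 h (2 of 4 with arrays scaled to one median), and none did without rat 4009, 4003, 1004 or 1005 or with the spread of only the groups compared. The count was also 1 without 1010, 3 without 1008, 5 without 1009, 6 without 4002 or 4010, 7 without 4007, 8 without 4001 and 9 without 1001 or 1006.

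After 5 daily doses, 134 genes were higher (2.83%) and 104 lower (2.20%). Of the 60 genes that rose after 1 dose, 33 were higher after 5 (55.0%, and 24.6% of the 5-day genes), and 1 was lower. Of the 47 that fell, 11 were lower after 5 doses (23.4% and 10.6%) and none was higher. The median of the genes that rose was 0.71 after 1 dose and 0.69 after 5, and the median of those that fell was -0.70 and -0.29.

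Direct tests of the effect after 5 days against the effect at 24 h called 4 genes higher and 4 lower (0.0845% each). Differences in this paragraph are between those effects, each against its own vehicle rats, and not between levels, unless given against vehicle. Eci1, Cyp4a1 and Decr1, all of fat oxidation, were lower after 5 doses by 2.40, 1.99 and 0.87 (adjusted p = 0.0078, 0.0089 and 0.0078), and the 3 lay at -1.13, -1.50 and -0.57 against their own vehicle at 5 days. The sulfotransferase Sult2a1 was lower by 1.15 (adjusted p = 0.0067). Abcc3 was higher by 1.66 (adjusted p = 0.020), Ldhd by 1.04 (adjusted p = 0.0078) and Clrn3 by 0.63 (adjusted p = 0.031). Pklr was higher by 1.69 (adjusted p = 0.020), at 0.11 against vehicle after 5 doses. Over all probe sets 19 passed, 26.3% of them higher after 5 doses (38.5% of 13 with arrays scaled to one median). They numbered 3 without rat 4014 and 0 with the spread of only the groups compared, and 34 without rat 4013 and 37 without rat 1011. Without rat 4014 the adjusted p was 0.055 for Eci1, 0.062 for Cyp4a1, 0.057 for Decr1 and 0.13 for Pklr.

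**Figure D4:**
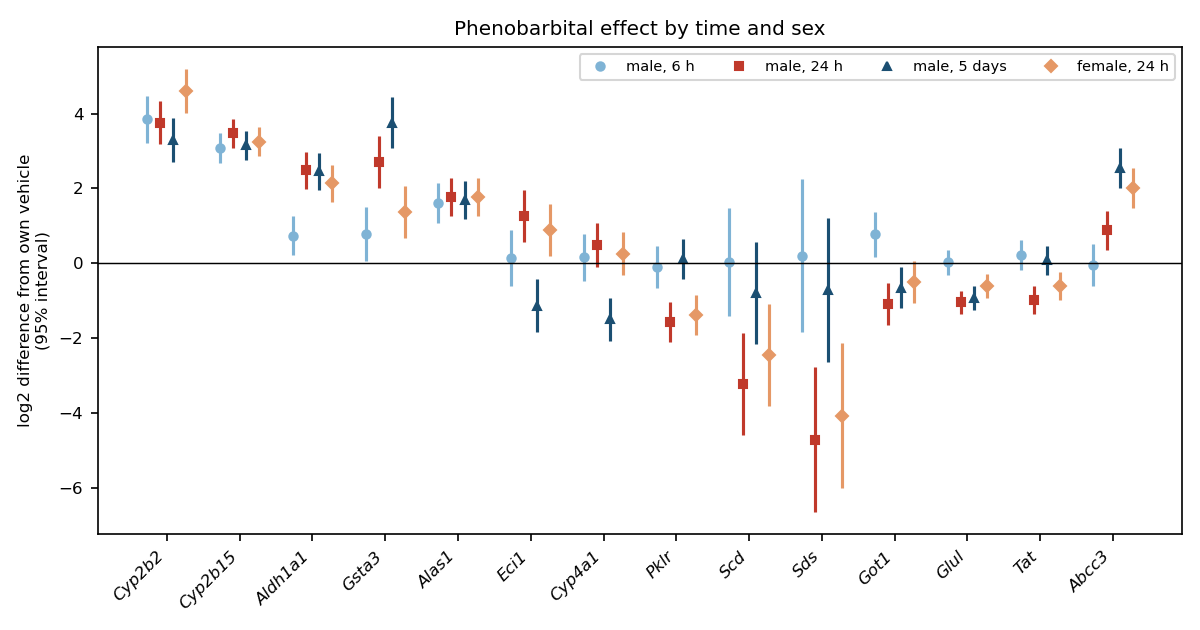
Difference in log2 level from the matching vehicle group, with its 95% interval, for 14 genes in 4 phenobarbital groups: males at 6 h, at 24 h and after 5 days, and females at 24 h. Cyp2b2, Cyp2b15 and Alas1 are raised in all 4 groups, whereas Scd, Sds, Got1, Glul and Tat lie at or above 0 at 6 h and below 0 at 24 h in both sexes.

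Females dosed in the same way had 104 genes higher (2.20%) and 87 lower (1.84%) at 24 h. Of the 60 male genes that rose, 26 rose in females (43.3%, and 25.0% of the female genes), 56 had a difference above 0, and none fell. Of the 47 that fell, 25 fell in females (53.2% and 28.7%) and 46 had a difference below 0. The limma test of the difference between the sexes called no gene and 1 of 8740 probe sets (0.0114%; 393 had an unadjusted p under 0.05), one shared by 2 Cyp3a genes and so not named, which rose more in females by 2.51. That count of 1 was 2 without rat 4507, 4508, 4008 or 1506, 3 without 4509 and 4 without 1007. In the proteasome list 20 of 26 genes rose in females and 7 in males, with medians of 0.69 and 0.38, and no member passed the test of the difference. Gsta4 was at -0.02 in females and 0.69 in males (difference between the sexes -0.71 ± 0.20, SE, adjusted p = 0.36). Cyp3a2, a male-biased gene, was at 1.35 in females and 0.01 in males (adjusted p of the difference 0.76).

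PCN, the reference activator of PXR in rodents, was compared directly with phenobarbital at the same dose and time, since both share the vehicle rats. With phenobarbital 34 genes were higher than with PCN (0.718%) and 31 lower (0.655%). Of the 4 measured Cyp2b genes 3 were higher with phenobarbital, and of 11 genes of electron supply and haem synthesis 1 was (Alas1). Of the 4 measured Cyp3a genes 1 was higher and 1 lower, and of 17 transporters 1 was higher and 2 lower. Over all probe sets 104 passed, 54 without rat 4009 and 66 without PCN rat 5008. With the spread of only the groups compared 27 passed, 19 of them among the 104. Of the 104, 53.8% were higher with phenobarbital, and with arrays scaled to one median 35.6% of 90 were.

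Cyp2b2 lay at 10.02 to 11.44 in the PCN rats, below every phenobarbital rat, a difference of 2.06 ± 0.29 (SE, adjusted p = 9.2e-07). Cyp2b15 lay at 8.04 to 8.98, a difference of 2.77 ± 0.19 (SE, adjusted p = 4.7e-19). Alas1 was higher with phenobarbital by 1.60 (adjusted p = 1.5e-05), Aldh1a1 by 1.52 (adjusted p = 2.2e-05) and Gsta3 by 1.92 (adjusted p = 0.00024). Ugt2b1 was higher by 0.91 (adjusted p = 0.0065). Slc6a9 and Grm5 were higher by 3.58 and 2.54 (adjusted p = 2.6e-08 and 2.4e-09). Abcc3 was higher by 1.15 (adjusted p = 0.0084), lost without rat 4009 (0.057).

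The Cyp3a genes went separate ways. Cyp3a18 lay at 10.99 to 11.31 in the PCN rats and at 9.59 to 10.07 in the phenobarbital rats, a difference of -1.27 ± 0.29 (SE, adjusted p = 0.0065). Cyp3a9 was higher with phenobarbital by 1.84 ± 0.48 (SE, adjusted p = 0.029), lost without rat 4008, 4009, 5007 or 5010. Cyp3a23-3a1 differed by -0.22, with a 95% interval of -0.56 to 0.12. Slco1a4 was lower with phenobarbital by 0.81 ± 0.21 (SE, adjusted p = 0.033), lost without rat 4006, 4007, 4009, 5006, 5008 or 5009.

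The largest falls against PCN were in Scd, Ap3m2, Cdc34, Hsf1 and Gip. Ap3m2, an adaptor subunit, differed by -2.17 ± 0.41 (SE, adjusted p = 0.00062), and Gip by -1.78 (adjusted p = 0.0029). Cdc34 at -2.08 (adjusted p = 0.0045) and Hsf1 at -2.01 (adjusted p = 0.0070) lost their calls without rat 4009 or 4010. Scd at -2.51 (adjusted p = 0.042) lost it without rat 4006, 4007, 4009, 4010, 5008, 5009 or 5010. No proteasome gene passed in this comparison, where the list's median was 0.17.

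**Figure D5:**
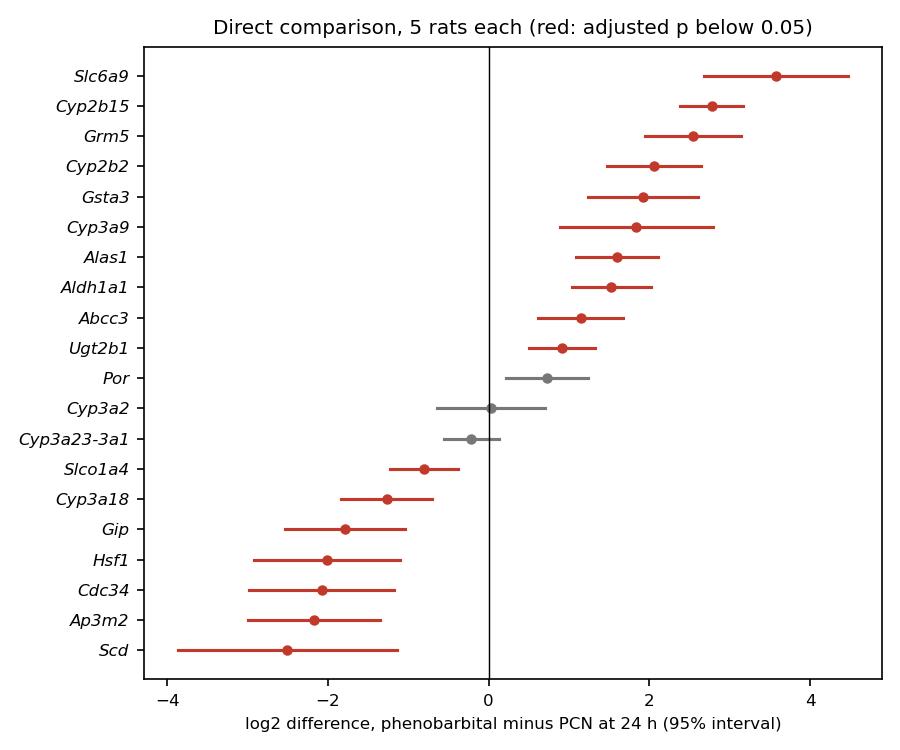
Difference in log2 level, phenobarbital minus PCN in male liver at 24 h with its 95% interval, for 20 genes, 5 rats in each group. Red marks an adjusted p below 0.05; Cyp2b15 and Cyp2b2 lie on the side of phenobarbital, Cyp3a18 and Slco1a4 on the side of PCN, and the intervals of Cyp3a23-3a1 and Cyp3a2 cover 0.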

How the data were processed

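The authors deposited one table of intensity per probe set for the phenobarbital and PCN study, on a linear scale with values at and below 0. How those intensities were summarised and scaled is not given in the sources used here. Per the labels' protocols, total RNA was copied into biotin-labelled cRNA. The deposited intensities of all 8799 probe sets, with negative values set to 0, were quantile normalised and turned into log2(value + 16), and the 8740 that are not controls were tested at an adjusted p of 0.05. One linear model over all 18 groups was fitted with limma 3.58.1 (R 4.3.3), lmFit and eBayes, with Benjamini-Hochberg adjustment over all probe sets. Vehicle rat 1003 (male, 6 h) was left out because 42.5% of its 87 stretches of probe sets matched its group better when moved by 1 position, against 0% on every other array. Probe sets with 1 gene symbol (7018) named 4736 genes that were tested, and 308 with several symbols and 1473 with none stayed unnamed. A gene was read from its brightest probe set. The members of the groups, the gene lists and the key genes were chosen with earlier results of these data known. Named genes are the key genes, up to 4 passing members of each list, the 15 largest rises and 15 largest falls, the 5 largest in each direction of the other comparisons, and the farthest member of a list with none past the threshold. A further 26 genes were picked after their values were seen. The scripts were tested on simulated data. Alternatives were another scaling, offsets of 1 and 64, a filter on dim probe sets, averaging the probe sets of a gene, moderation with a trend, the spread of only the groups compared, a replicate block and leaving out each rat. For the spread of only the groups compared, those arrays were also normalised anew. The number of arrays limits the precision.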

Additional observations from a re-analysis of the deposited data

Results flagged for a closer look

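In groups of 5 rats, a rat was picked out where its gap to the nearest other rat was more than 0.71 of the group's range. Of 242 groups of values 19 had such a rat, and chance alone gives about 1 in 20. Among the vehicle rats these were rat 1008 for Bok (7.18, next 8.07), Ctsl (10.79, next 11.10), Kctd15 (6.33, next 7.33) and Cyp2b3 (10.98, next 11.10), rat 1009 for Cdh2 (7.24, next 7.72) and Txnrd1 (9.70, next 9.36), and rat 1007 for Cyp7a1 (4.84, next 7.13) and Grm5 (4.29, the others at 4.00). Rat 1010 stood out for Slc6a9 (4.07, the others at 4.00). Among the treated rats they were rat 4006 for Psmb9 (8.83, next 8.16), rat 4007 for Bok (7.43, next 6.59), Cebpa (6.43, the others at 4.00) and Slc6a9 (5.92, next 8.19), rat 4008 for Cyp3a9 (9.64, next 8.97) and Rpl30 (8.24, next 6.88), and rat 4010 for Dbp (5.46, the others at 4.00), Psmd13 (6.63, next 6.83), Ass1 (11.67, next 11.39) and Otc (11.13, next 10.91).

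The phenobarbital effect in males differed between 6 h and 24 h, by the test of the difference, for Aldh1a1 (1.74), Got1 (-1.85), Tat (-1.19), Glul (-1.07), Lrrc59 (-0.85), Atp1b3 (-0.71) and Hnrnpd (-0.71). It differed between 24 h and 5 days for Pklr (1.69), Abcc3 (1.66), Ldhd (1.04), Clrn3 (0.63), Decr1 (-0.87), Sult2a1 (-1.15), Cyp4a1 (-1.99) and Eci1 (-2.40). All values are log2 differences, later time minus earlier. No probe set passed either test with the spread of only the groups compared. The first test also called none without rat 4009, 4003, 1004 or 1005, and the second called 3 probe sets without rat 4014.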

How the results depend on the processing

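Median scaling in place of quantile normalisation gave 125 probe sets in place of 202 for phenobarbital against vehicle, and 4 in place of 14 for 24 h against 6 h. With the spread of only the groups compared the counts were 114 for phenobarbital against vehicle, 0 for 24 h against 6 h (528 at an unadjusted p under 0.05), 0 for 5 days against 24 h (19 as reported; 536 unadjusted) and 0.309% of probe sets for phenobarbital against PCN (1.19% as reported). With rat 1003 kept in the fit they were 134 against vehicle and 7 for 5 days against 24 h. An offset of 1 gave 2 for the difference between the sexes (1 as reported), and averaging the probe sets of each gene gave 11 genes for 24 h against 6 h (7 as reported). Leaving out each rat in turn gave 126 to 214 against vehicle, 1 to 4 for the sexes, 0 to 20 for 24 h against 6 h, 3 to 37 for 5 days against 24 h and 0.618% to 1.77% of probe sets against PCN. With the rats' place in their group as a replicate block the counts were 283 against vehicle, 3 for the sexes, 19 for 24 h against 6 h, 34 for 5 days against 24 h and 1.96% of probe sets against PCN; deviations of same-placed rats correlated at -0.01 to 0.26, so the numbers were not taken to pair the rats.

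Of 70 named genes that passed against vehicle, 23 passed under all alternatives (19, or 18 for a few genes) and 38 without each of the 10 rats in turn. Of 54 that did not pass, 10 passed under some alternative. No named gene's difference changed sign where it was called. The cause of these changes was not tested. Genes near the lowest level have only a bound on one side, and 5 rats a group limit the precision.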
